A study of Homo sapiens with 12 samples.

Results

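The desmosome components described here are 10 human genes: the desmosomal cadherins DSG1, DSG2, DSG3, DSC1, DSC2 and DSC3, and the plaque proteins DSP, JUP, PKP1 and PKP3. They were taken by gene symbol from the 14884 genes that the array's annotation names. Each had 1 probe set, and 8 of the 10 exceeded the median of the array on at least 3 arrays and were tested. Their RNA was measured on 12 Affymetrix arrays, 3 in each of 4 groups: A431 cells with the solvent DMSO, A431 cells with everolimus, and HSC-1 cells with each of these. The dose was 100 nM and the exposure lasted 72 h. A431 and HSC-1 are established human lines that the labels assign to squamous cell carcinoma of the skin, and everolimus is a rapamycin analogue that inhibits mTOR complex 1. Each line stands for 1 tumour. The labels give a culture medium with 10 or 20% fetal bovine serum without saying which line received which, so medium and line cannot be told apart. Whether the 3 replicates were independent cultures is not stated either, so the spread behind each p-value is that between these arrays and may be technical. By its title the study looked for genes linked to resistance against everolimus. Neither line is labelled as resistant or sensitive.

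Desmosomes are adhesive junctions that tie the keratin filaments of neighbouring epithelial cells together, and they are abundant in epidermis. Desmogleins and desmocollins are calcium-dependent cadherins that span the membrane and bind those of the next cell. Inside the cell their tails bind plakoglobin (JUP) and the plakophilins (PKP1 and PKP3), which are armadillo-repeat proteins, and desmoplakin (DSP) links this plaque to keratin. In normal epidermis DSG2, DSG3, DSC2 and DSC3 are found mostly in the lower layers, while DSG1 and DSC1 belong to the upper, differentiating layers.

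The stretches of 250 bases before the gene start are shown for 6 members: the 5 whose response to everolimus differed between the lines, and DSG2, which fell in both. They come from RefSeq (GRCh38.p14) and run 5′ to 3′ on the gene's strand. Capitals mark every match, on either strand, to the motifs that were searched. The GC box was searched as GGGCGG and the CACCC box by the letters of its name. The E-box of Snail-type repressors was searched as CACCTG, the AP-1 site as TGANTCA, and the site of grainyhead-like factors as AACCGGTT. The C/EBP site was searched as TTGCNNAA and the TATA box as TATAAA. Matches to the same motif can overlap or adjoin each other, as those to the GC box do in DSP, where matches to the CACCC box adjoin too.
DSG3, chr18:31447491-31447740, plus strand: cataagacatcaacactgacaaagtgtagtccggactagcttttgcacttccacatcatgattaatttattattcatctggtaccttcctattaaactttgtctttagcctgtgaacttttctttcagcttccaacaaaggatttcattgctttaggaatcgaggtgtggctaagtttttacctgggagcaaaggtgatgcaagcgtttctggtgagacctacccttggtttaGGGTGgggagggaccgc
DSC3, chr18:31042743-31042992, minus strand: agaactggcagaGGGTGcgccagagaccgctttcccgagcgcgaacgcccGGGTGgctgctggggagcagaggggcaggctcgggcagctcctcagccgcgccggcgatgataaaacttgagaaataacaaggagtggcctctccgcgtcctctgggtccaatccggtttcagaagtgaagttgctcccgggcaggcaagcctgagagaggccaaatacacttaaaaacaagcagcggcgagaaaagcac
DSP, chr6:7541421-7541670, plus strand: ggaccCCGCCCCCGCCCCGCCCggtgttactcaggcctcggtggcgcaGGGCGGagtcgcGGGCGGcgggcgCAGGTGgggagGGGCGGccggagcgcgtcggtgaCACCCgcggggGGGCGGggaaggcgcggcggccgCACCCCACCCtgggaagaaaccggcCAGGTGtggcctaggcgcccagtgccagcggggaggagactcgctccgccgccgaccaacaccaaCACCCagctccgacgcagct
JUP, chr17:41786712-41786961, minus strand: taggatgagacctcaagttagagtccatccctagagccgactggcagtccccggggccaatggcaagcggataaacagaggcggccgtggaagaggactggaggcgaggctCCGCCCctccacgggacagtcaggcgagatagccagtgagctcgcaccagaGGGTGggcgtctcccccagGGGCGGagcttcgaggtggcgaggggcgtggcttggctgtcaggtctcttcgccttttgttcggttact
PKP1, chr1:201283256-201283505, plus strand: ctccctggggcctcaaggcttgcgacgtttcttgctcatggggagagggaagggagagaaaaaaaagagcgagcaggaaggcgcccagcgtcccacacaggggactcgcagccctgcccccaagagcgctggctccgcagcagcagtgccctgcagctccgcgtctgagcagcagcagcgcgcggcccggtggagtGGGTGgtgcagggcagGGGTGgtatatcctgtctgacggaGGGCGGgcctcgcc
DSG2, chr18:31497927-31498176, plus strand: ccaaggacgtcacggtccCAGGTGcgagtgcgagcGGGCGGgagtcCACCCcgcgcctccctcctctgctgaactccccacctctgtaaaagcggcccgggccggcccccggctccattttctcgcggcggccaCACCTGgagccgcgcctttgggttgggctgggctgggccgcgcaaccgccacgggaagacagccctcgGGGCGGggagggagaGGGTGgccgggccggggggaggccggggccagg

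Of the 10 members, 9 had an entry in the promoter table, and PKP3 had none. Only the window before the outermost start of each member was counted, while the windows of the whole table include further starts. DSC2 and JUP each had a further start that was left out. The window there held TTGCNNAA and CACCTG but no GGGCGG for JUP, and GGGCGG but no CACCTG for DSC2. All 9 windows held CACCC, against 54.7% of the 34943 promoter windows of the same length in the table. GGGCGG was present in 5 of 9 (DSG2, DSC2, DSP, JUP and PKP1), against 42.5%, and CACCTG in 4 of 9 (DSG1, DSG2, DSC2 and DSP), against 17.5%. None of the 9 held TGANTCA (6.59% of all windows), AACCGGTT (0.114%), TTGCNNAA (9.06%) or TATAAA (10.8%). These are letters in a window, not measured binding sites. Base composition set the members apart: 78.0% of the DSP window and 75.2% of the DSG2 window was G or C, while the DSG3 window had 42.8%, with a median of 58.0% over all windows. Among the 36 pairs of members the longest shared run was 20 bases, aagtttttacctgggagcaa, in DSG1 (from base 120 before the start) and DSG3 (from base 78). It occurred in 2 of the 34943 windows, those of DSG1 and DSG3.

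Everolimus lowered 5 of the 8 tested members in A431 (DSG2, DSG3, DSC2, DSP and JUP) and raised 0. In HSC-1 it raised 3 (DSC3, DSP and PKP1) and lowered 1 (DSG2). DSP therefore changed in both lines with opposite sign, and DSG2 fell in both. The changes were modest: the largest was a 1.38-fold fall of DSG3 in A431, and the largest rise was 1.18-fold, of DSC3 in HSC-1. All 8 tested members had negative differences in A431, with a median of -0.20 on the log2 scale. Over all 10613 genes tested the median was -0.0038, and 49% of differences were positive. The smallest member difference, that of PKP3 (-0.021 ± 0.074), changed sign in 2 of 22 alternatives. In HSC-1 the median was 0.08 over the 8 members and -0.021 over all genes. Changes were called with limma, a linear model fitted to all tested genes at once, at a Benjamini-Hochberg adjusted p under 0.05. Calls made up 6.73% of all tested genes in A431 (2.39% higher and 4.33% lower) and 18.6% in HSC-1 (7.34% higher and 11.3% lower). The 8 members had an SE of 0.031 to 0.074, below the median of 0.094 over all tested genes. A difference of a given size thus passed more readily in them than at the median SE. What part this has in the counts was not tested. In bulk RNA a smaller share of cells making a transcript and less of it per cell cannot be told apart. When the variance model did not follow the intensity of the genes (no intensity trend), the A431 count was 2 (DSG3 and JUP). In HSC-1 limma then gave 0 calls, with 4 members at an unadjusted p under 0.05. The adjusted p of the 4 members called with the trend then lay between 0.0532 and 0.0955. Over all tested genes this setting gave 438 calls in A431 (from 714) and 1537 in HSC-1 (from 1977).

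**Figure D1:**
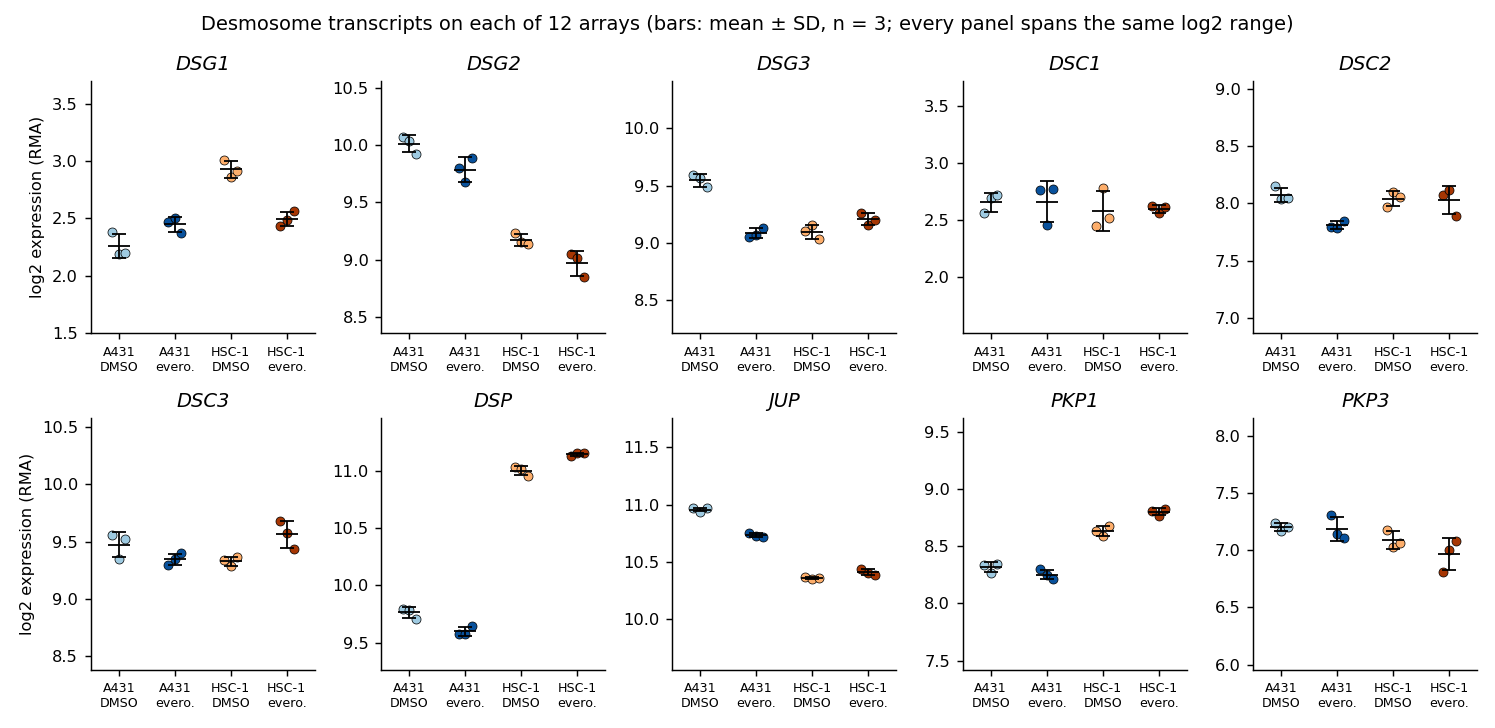
Log2 expression (RMA, vertical axis) of the 10 desmosome genes on each of the 12 arrays, by line and treatment. Points are arrays, and bars are the mean ± SD of 3 arrays. Every panel spans the same number of log2 units around its own centre, so heights compare groups within a gene and not genes with each other. DSP is higher in HSC-1, DSG2 and JUP are higher in A431, and DSG1 and DSC1 lie below 3.1 on every array.

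DSG3 encodes desmoglein 3, the cadherin attacked by autoantibodies in pemphigus vulgaris. In A431 its log2 levels were 9.59, 9.57 and 9.48 with DMSO and 9.05, 9.07 and 9.13 with everolimus. All 3 treated arrays thus lay below all 3 controls, which was true in either direction of 24.5% of all tested genes. The log2 difference was -0.46 ± 0.045 (SE), a 1.38-fold fall (limma adjusted p = 2.98e-06), and the gene ranked number 22 by p among the 10613. In HSC-1 the levels were 9.10, 9.16 and 9.04 with DMSO and 9.26, 9.16 and 9.20 with everolimus. The treated arrays were all higher here, although the closest pair both read 9.16, and 33.3% of tested genes had groups without overlap in this line. The difference of 0.11 ± 0.045 did not pass (limma adjusted p = 0.110, 95% interval 0.013 to 0.203). The HSC-1 effect exceeded the A431 effect by 0.57 ± 0.064 (limma adjusted p = 1.37e-05), the widest gap between the lines among the 8 members.

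DSG2, desmoglein 2, is the desmoglein with the widest tissue distribution and is also made in simple epithelia. Levels in A431 were 10.07, 10.04 and 9.93 with DMSO and 9.80, 9.68 and 9.88 with everolimus, so the groups did not overlap. In HSC-1 they were 9.23, 9.15 and 9.13 with DMSO and 9.05, 9.01 and 8.84 with everolimus, again without overlap. The falls were 1.17-fold in A431 (-0.23 ± 0.059, limma adjusted p = 0.0255) and 1.15-fold in HSC-1 (-0.20 ± 0.059, limma adjusted p = 0.0219). Their difference was 0.023 ± 0.084 (limma adjusted p = 0.917), with a 95% interval from -0.153 to 0.198. The fall in A431 did not pass without A431 DMSO replicate 1 (limma adjusted p = 0.122) or 2 (0.0945) and without A431 everolimus replicate 1 (0.0650) or 2 (0.144), in a range from 0.00777 over 22 alternatives. In HSC-1 leaving out DMSO replicate 1 (0.105) or everolimus replicate 3 (0.103) ended the call, and the alternatives began at 0.00458.

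DSC2, desmocollin 2, is likewise the widely expressed member of its family. Its levels in A431 were 8.15, 8.04 and 8.05 with DMSO and 7.79, 7.79 and 7.85 with everolimus, with no overlap. The fall was 1.20-fold (-0.27 ± 0.060, limma adjusted p = 0.00989), and it was lost without A431 DMSO replicate 1 (0.0602, with 0.00228 the lowest of its alternatives). HSC-1 gave 7.97, 8.10 and 8.06 with DMSO and 8.07, 8.12 and 7.89 with everolimus. These overlapped, with a difference of -0.017 ± 0.060 that turned to 0.025 with array weights, and the 95% interval ran from -0.143 to 0.110. The effects of the lines differed by 0.25 ± 0.085, which did not pass (limma adjusted p = 0.0684). That difference did pass with array weights (0.0185) and without HSC-1 everolimus replicate 3 (0.00954), in a range up to 0.176.

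DSC3, desmocollin 3, is a cadherin of the basal epidermis. Levels in A431 were 9.55, 9.35 and 9.52 with DMSO and 9.30, 9.35 and 9.40 with everolimus. The groups overlapped, and the difference of -0.13 ± 0.059 did not pass (limma adjusted p = 0.245, 95% interval -0.250 to -0.0034). In HSC-1 the levels were 9.34, 9.28 and 9.36 with DMSO and 9.68, 9.57 and 9.44 with everolimus, all treated arrays being higher. This was a 1.18-fold rise (0.23 ± 0.059, limma adjusted p = 0.00848), lost without HSC-1 everolimus replicate 1 (0.0548), in a range from 0.00151 to 0.0567 over 22 alternatives. The HSC-1 effect exceeded the A431 effect by 0.36 ± 0.083 (limma adjusted p = 0.00821), and with no intensity trend that p was 0.0624, the highest of its alternatives, which began at 0.0016.

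DSG1 and DSC1, the cadherins of the upper epidermis, lay below the array median on all 12 arrays and were not tested with the other genes. DSG1 levels were 2.38, 2.19 and 2.20 in A431 with DMSO, 2.47, 2.50 and 2.37 in A431 with everolimus, 3.01, 2.86 and 2.91 in HSC-1 with DMSO and 2.44, 2.49 and 2.56 in HSC-1 with everolimus. HSC-1 with DMSO was thus the highest group. DSC1 ranged from 2.45 to 2.78 over the 12 arrays, with all groups overlapping. When all 14884 named genes were tested, the DSG1 difference in HSC-1 was -0.43 ± 0.10 (limma adjusted p = 0.00829), and that between HSC-1 and A431 with DMSO was 0.67 ± 0.10 (limma adjusted p = 1.94e-05). Sizes at such low levels depend on background. DSC1 differences in the 5 comparisons lay between -0.073 and 0.015.

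DSP encodes desmoplakin, the linker from the plaque to keratin filaments. In A431 it measured 9.79, 9.79 and 9.71 with DMSO and 9.57, 9.57 and 9.65 with everolimus, all treated arrays being lower. In HSC-1 it measured 11.03, 11.01 and 10.96 with DMSO and 11.13, 11.15 and 11.15 with everolimus, all treated arrays being higher. DSP fell 1.12-fold in A431 (-0.17 ± 0.037, limma adjusted p = 0.00887) and rose 1.11-fold in HSC-1 (0.15 ± 0.037, limma adjusted p = 0.00859). The 2 effects differed by 0.31 ± 0.052 (limma adjusted p = 6.62e-04), and this call was kept under all 21 alternatives run for it, at up to 0.0277. The A431 call was lost without A431 DMSO replicate 2 (0.0514, in a range from 0.00269 to 0.111), and the HSC-1 call without HSC-1 DMSO replicate 3 (0.0521, where alternatives spanned 0.00476 to 0.0839).

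JUP encodes plakoglobin, a relative of beta-catenin found in desmosomes and adherens junctions. A431 gave 10.97, 10.94 and 10.97 with DMSO and 10.75, 10.73 and 10.72 with everolimus, groups that were tight and well apart. The fall was 1.17-fold (-0.23 ± 0.031, limma adjusted p = 1.19e-04), and the call was kept under all 22 alternatives, at up to 0.0203. HSC-1 gave 10.37, 10.35 and 10.36 with DMSO and 10.44, 10.40 and 10.38 with everolimus. The treated arrays were all slightly higher, the difference of 0.049 ± 0.031 did not pass (limma adjusted p = 0.324), and it was -0.033 with quantile normalization applied again. The effects of the lines differed by 0.27 ± 0.044 (limma adjusted p = 5.04e-04), a call also kept under all 21 alternatives. The spread of JUP within groups (pooled SD 0.018) lay at the 0.0188 percentile of the tested genes. That of DSP lay at the 1.87 percentile and that of PKP1 at 2.61. Small p-values of these genes rest partly on this spread, which may be technical.

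PKP1, plakophilin 1, strengthens desmosomes by clustering their cadherins and desmoplakin. A431 levels were 8.34, 8.27 and 8.35 with DMSO and 8.30, 8.25 and 8.21 with everolimus. They overlapped, with a difference of -0.065 ± 0.044 (limma adjusted p = 0.479, 95% interval -0.158 to 0.029). In HSC-1 the values were 8.63, 8.59 and 8.68 with DMSO and 8.81, 8.77 and 8.83 with everolimus, all treated arrays being higher. PKP1 rose 1.12-fold there (0.17 ± 0.044, limma adjusted p = 0.0117), a call lost without HSC-1 DMSO replicate 2 (0.0643, the highest of its alternatives, which began at 0.00984). The difference between the lines was 0.23 ± 0.063 (limma adjusted p = 0.0216). Leaving out A431 DMSO replicate 1 (0.0515) or 3 (0.0525), or replicate 2 of the HSC-1 controls (0.0667), ended this call, over alternatives from 0.0187 to 0.0839.

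PKP3, plakophilin 3, is present in nearly all layers of stratified epithelia. A431 gave 7.24, 7.17 and 7.21 with DMSO and 7.30, 7.14 and 7.11 with everolimus. HSC-1 gave 7.18, 7.03 and 7.07 with DMSO and 6.81, 7.005 and 7.08 with everolimus. The treatment groups overlapped in both lines, with differences of -0.021 ± 0.074 in A431 (95% interval -0.177 to 0.135) and -0.13 ± 0.074 in HSC-1 (-0.282 to 0.029), and neither passed. The HSC-1 difference was -0.049 without HSC-1 everolimus replicate 1 and -0.084 without HSC-1 DMSO replicate 1.

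**Figure D2:**
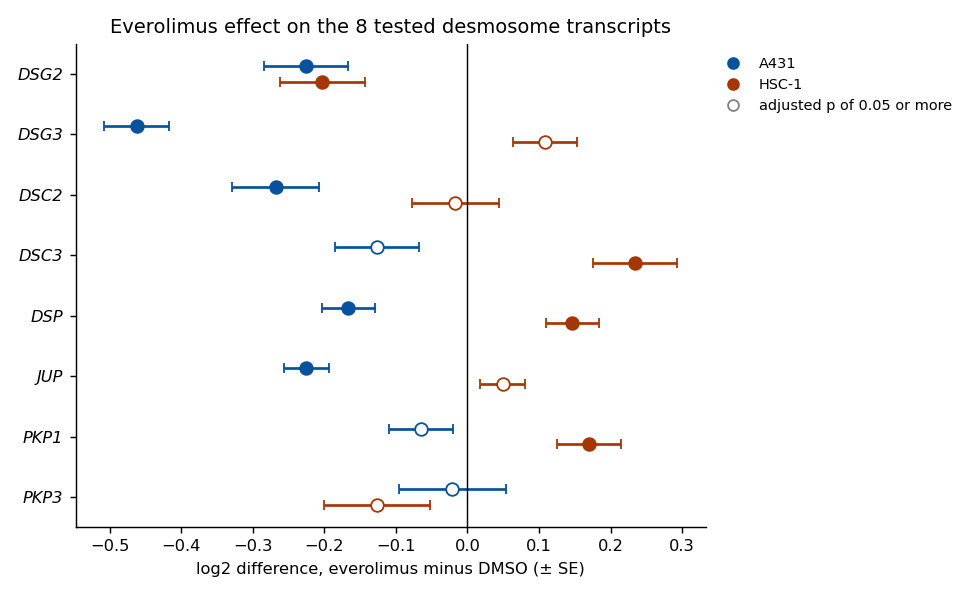
Log2 difference between everolimus and DMSO (horizontal axis, ± SE) for the 8 tested desmosome genes in A431 and HSC-1, 3 arrays against 3 in each line. Filled points have a limma adjusted p under 0.05. DSG2 sits at -0.23 and -0.20 in the 2 lines, while DSP sits at -0.17 in A431 and 0.15 in HSC-1.

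The effect of everolimus differed between the lines for 5 of the 8 members, DSG3, DSC3, DSP, JUP and PKP1, and in all 5 the HSC-1 effect was the more positive. DSG1, tested only when no gene was left out for its level, went the other way (-0.62 ± 0.14, limma adjusted p = 0.0126), at levels below the array median. Over all tested genes 4.84% were called with the HSC-1 effect more positive and 5.69% with it more negative. The SE of this difference was 0.044 to 0.105 in the 8 members, below the median of 0.133 over all tested genes. The median difference between the effects was 0.26 over the 8 members and -0.011 over all genes. With no intensity trend 3 members kept the call, DSG3, DSP and JUP, and calls over all tested genes went from 1118 to 749.

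HSC-1 and A431 were also compared without everolimus. With DMSO, HSC-1 had more DSP and PKP1 and less DSG2, DSG3, DSC3 and JUP, 6 of 8 tested members, where 59.4% of all tested genes differed (29.2% higher and 30.2% lower). DSP stood 2.36-fold higher in HSC-1 (1.24 ± 0.037, limma adjusted p = 1.66e-15) and DSG2 1.79-fold lower (-0.84 ± 0.059, limma adjusted p = 3.98e-10). JUP was 1.51-fold lower (-0.60 ± 0.031), DSG3 1.37-fold lower (-0.45 ± 0.045) and PKP1 1.24-fold higher (0.31 ± 0.044). The arrays of the lines did not overlap for these 5 members, a property shared by 65.3% of tested genes. DSC3 differed by -0.15 ± 0.059 with overlapping arrays (limma adjusted p = 0.0404), and 7 of 22 alternatives lost this call, among them leaving out replicate 1 (0.180) or 3 (0.133) of the A431 controls or replicate 1 (0.0730) or 2 (0.132) of the HSC-1 controls, over a range that began at 0.00534. DSC2 (-0.035 ± 0.060, and 0.019 with quantile normalization applied again) and PKP3 (-0.11 ± 0.074) did not pass.

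With everolimus all 8 tested members differed between the lines, against 59.3% of all tested genes (28.2% higher and 31% lower), and no member's arrays overlapped, which held for 63.1% of genes. HSC-1 then had more of 5 members and less of 3. DSG3 changed sides: it was lower in HSC-1 with DMSO and 1.09-fold higher with everolimus (0.12 ± 0.045, limma adjusted p = 0.0265). This last call was lost when arrays were centred on their medians (0.0627), with no intensity trend (0.0917), without A431 everolimus replicate 1 (0.0986) or 2 (0.0665) and without HSC-1 everolimus replicate 1 (0.112), in a range from 0.00126. DSC3 was 1.16-fold higher in HSC-1 (0.22 ± 0.059, limma adjusted p = 0.00362), and DSC2 also 1.16-fold (0.22 ± 0.060, limma adjusted p = 0.00432). The DSP difference was 2.93-fold (1.55 ± 0.037) and that of PKP1 1.46-fold (0.55 ± 0.044), while JUP narrowed to 1.25-fold lower (-0.32 ± 0.031) and DSG2 remained 1.76-fold lower (-0.82 ± 0.059). PKP3 was 1.17-fold lower (-0.22 ± 0.074, limma adjusted p = 0.0152), a call lost with quantile normalization applied again (0.0552) and without A431 everolimus replicate 1 (0.0972) or HSC-1 everolimus replicate 1 (0.104), in a range from 0.00491.

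**Figure D3:**
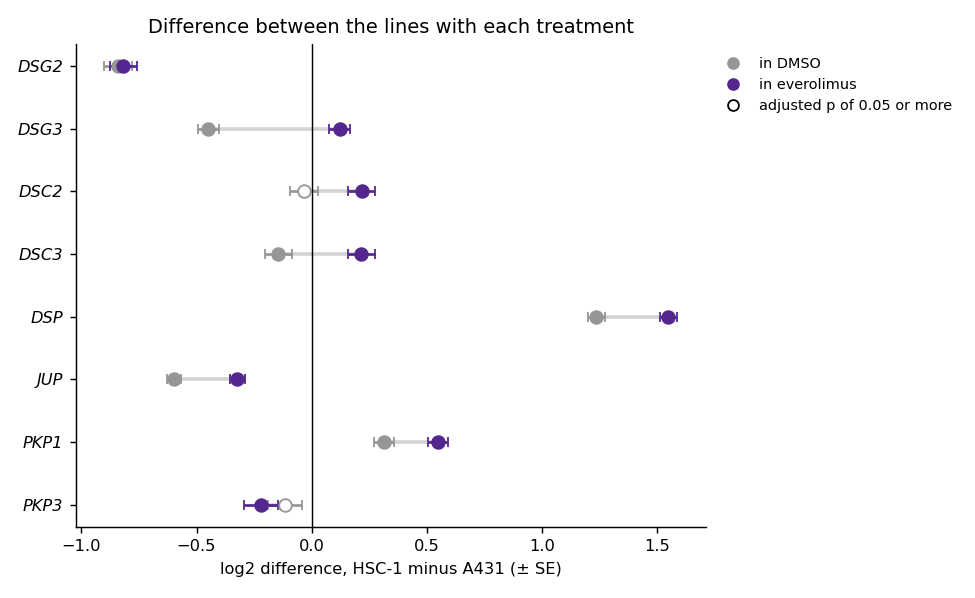
Log2 difference between HSC-1 and A431 (horizontal axis, ± SE) for the 8 tested desmosome genes, with DMSO and with everolimus, 3 arrays against 3. Grey lines join the values of a gene, and filled points have a limma adjusted p under 0.05. DSG3 moves from -0.45 to 0.12 and DSP from 1.24 to 1.55, while DSG2 lies at -0.84 and -0.82.

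The order of the 4 groups differed from gene to gene. DSP and PKP1 were highest in HSC-1 with everolimus, then HSC-1 with DMSO, then A431 with DMSO, and lowest in A431 with everolimus. Neighbouring groups in that order did not overlap, except the 2 A431 groups for PKP1. DSG2 was highest in untreated A431, followed by treated A431, untreated HSC-1 and treated HSC-1, with no overlap between neighbours. JUP shared that order except that the HSC-1 groups were exchanged, also with no overlap. For DSG3 A431 with DMSO stood above HSC-1 with everolimus and the latter above HSC-1 with DMSO, which overlapped A431 with everolimus. DSC2 had 1 group apart, A431 with everolimus at the bottom, and DSC3 and PKP3 had overlap between every pair of neighbours.

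The 6 cadherin genes and DSG4, a hair follicle desmoglein, lie in a row on 1 chromosome in the order DSC3, DSC2, DSC1, DSG1, DSG4, DSG3 and DSG2. At one end DSC3 rose in HSC-1 while DSC2 differed by -0.017, and at the other DSG3 differed by 0.11 in HSC-1 while DSG2 fell. In A431 both DSG3 and DSG2 fell, and at the other end DSC2 fell (-0.27) while DSC3 did not pass (-0.13). No test set 1 gene of the row against the next. DSC1, DSG1 and DSG4, in the middle of the row, lay below the array median on all 12 arrays.

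For the 4 tested members that varied most over the arrays, the tested genes with the nearest profiles were found from the root mean square difference over 12 arrays, after centring each gene on its own mean. DSP was nearest to HIVEP2 (0.066), IL1RAP (0.067) and NHS (0.080). DSG2 was nearest to GALNT3 (0.063), ABHD2 (0.065) and ERG28 (0.068), and JUP to TMBIM1 (0.045), ARFIP1 (0.046) and WDR59 (0.056). PKP1 was nearest to SH3GLB2 (0.051), RND3 (0.061) and AJUBA (0.062), a LIM protein of adherens junctions. Most of these profiles differed more between the lines than between treatments. HIVEP2, for instance, had means of 7.26 and 7.16 in A431 and of 8.44 and 8.67 in HSC-1, with DMSO and everolimus in that order. TMBIM1 had means of 7.44 and 7.15 in A431 and of 6.80 and 6.89 in HSC-1, in the same order. Its lines lay closer with everolimus than its treatments did in A431.

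Other desmosome and plaque genes were examined as a list of 7, of which 5 were tested. In each list a gene went untested where it had no named probe set or did not exceed the array median on at least 3 arrays. Beside this and the following lists stand the shares called over all tested genes, 2.39% higher and 4.33% lower in A431 and 7.34% higher and 11.3% lower in HSC-1. In A431 2 fell and 0 rose (limma, and 0 also at an unadjusted p under 0.05), with a median of -0.25, and in HSC-1 1 rose and 1 fell, with a median of 0.040. Periplakin (PPL), a relative of desmoplakin in the plaque and the cornified envelope, fell in A431 (-0.28 ± 0.050, limma adjusted p = 0.00162) and rose in HSC-1 (0.33 ± 0.050, limma adjusted p = 1.29e-04). Its mean levels were 8.46 and 8.18 in A431 and 7.93 and 8.26 in HSC-1, with DMSO and everolimus in that order, so it took the signs of DSP in both lines. Plakophilin 2 (PKP2), the plakophilin of simple epithelia and heart, fell in both lines (-0.30 ± 0.056 and -0.20 ± 0.056), as DSG2 did. It was 1.99-fold lower in HSC-1 than in A431 with DMSO. PKP4, EVPL and CDSN (corneodesmosin) did not pass in either line.

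Keratins are the filaments that desmoplakin holds, and 12 of the 17 listed were tested. In A431 4 fell and 0 rose by limma (5 and 0 at an unadjusted p under 0.05, median -0.14), and in HSC-1 2 rose and 2 fell (median 0.019). The mucosal pair KRT4 and KRT13 fell in A431 by 0.79 and 0.66 on the log2 scale and rose in HSC-1 (0.17 ± 0.049 and 0.38 ± 0.067). Their effects differed between the lines by 0.96 ± 0.069 and 1.03 ± 0.095. The basal keratin KRT14 fell in both lines (-0.29 ± 0.038 and -0.17 ± 0.038), and its partner KRT5 did not pass in either (-0.020 ± 0.046 and 0.088 ± 0.046). KRT15 fell in A431 (-0.52 ± 0.045) and KRT18, a keratin of simple epithelia, in HSC-1 (-0.22 ± 0.050).

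Of 14 adherens junction genes listed, 7 had a named probe set, and all 7 were tested. CDH1, CDH2, CDH3, CTNNB1, CTNNA1, CTNND1 and AFDN had none, so their levels are not known here. Of the 7 tested, 2 fell and 0 rose in A431 by limma (3 and 0 at an unadjusted p under 0.05). In HSC-1 1 fell and 1 rose, and the medians were -0.18 in A431 and -0.041 in HSC-1. Vinculin (VCL), which couples cadherin complexes to actin, fell in A431 (-0.18 ± 0.039, limma adjusted p = 0.00705) and rose in HSC-1 (0.20 ± 0.039, limma adjusted p = 0.00126). The nectin NECTIN2 fell in both (-0.21 ± 0.058 and -0.30 ± 0.058). Of 11 tested tight junction genes, 1 fell in each line and 0 rose, where 6.73% of all tested genes were called in A431 and 18.6% in HSC-1: claudin CLDN1 in A431 (-0.31 ± 0.040) and CLDN7 in HSC-1 (-0.39 ± 0.076), with medians of -0.041 and -0.11. At an unadjusted p under 0.05 limma gave 3 lower and 0 higher in A431 and 1 lower and 2 higher in HSC-1. CLDN1 differed by 0.11 ± 0.040 in HSC-1 (limma adjusted p = 0.0769), and its effects differed between the lines by 0.42 ± 0.057. Of 9 hemidesmosome genes, which anchor keratin to the basement membrane, 3 had a named probe set, and all 3 were tested. Of these 1, plectin (PLEC), rose in both lines (0.22 ± 0.059 and 0.30 ± 0.059). Of 7 gap junction genes listed, only PANX1 had a named probe set, and it did not pass in either line (0.069 ± 0.094 and -0.18 ± 0.094).

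**Figure D4:**
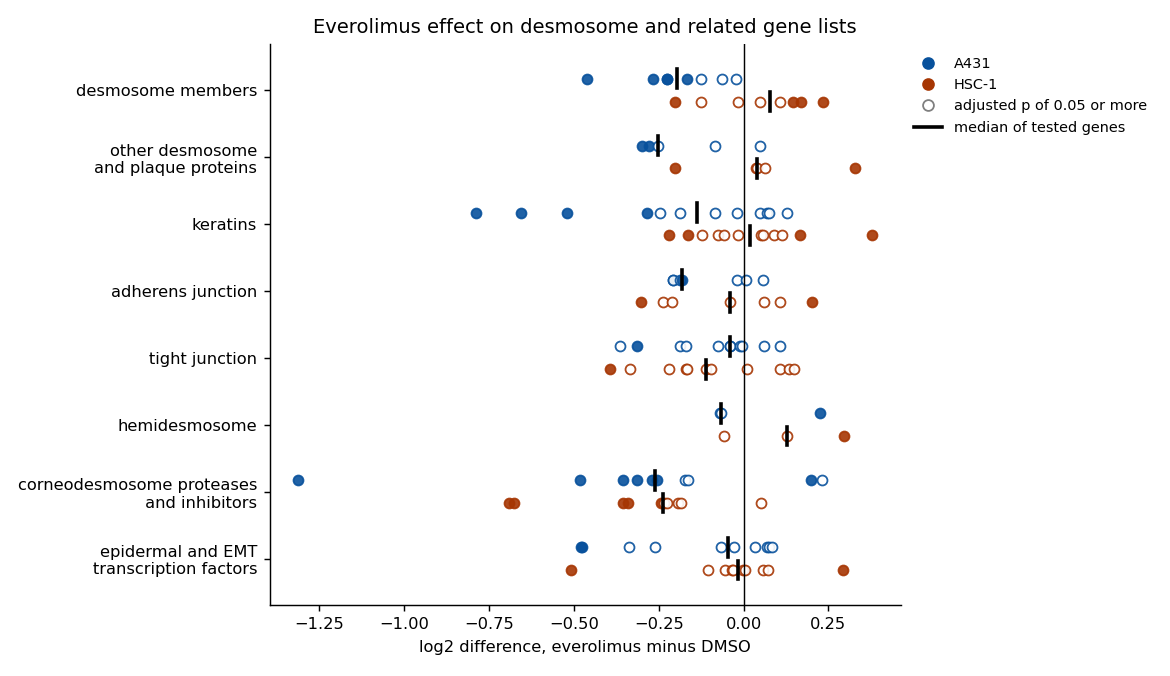
Log2 difference between everolimus and DMSO (horizontal axis) for each tested gene of the desmosome members and 7 related lists, in A431 and HSC-1. Filled points have a limma adjusted p under 0.05, and black bars are medians over the tested genes. The medians of the desmosome members are -0.20 in A431 and 0.08 in HSC-1.

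Replicate arrays had correlations of 0.989 to 0.992 across probe sets, which are not independent replicates. Between treatments of a line these were 0.987 to 0.991, and between A431 and HSC-1 0.955 to 0.962. Of the 7 keratinocyte markers listed, 3 had a named probe set (KRT5, KRT14 and SFN) and all 3 lay above the array median on every array, with means over the 3 between 9.89 and 10.23. With everolimus SFN, like KRT14, fell in A431 (-0.14 ± 0.034) and in HSC-1 (-0.27 ± 0.034), and whether this has a part in the results was not tested. Endothelial markers lay below it in all groups (3 named of 4), as did the fibroblast marker DCN and the melanocyte markers MLANA and TYR. The fibroblast markers LUM and THY1, the melanocyte marker SOX10 and the leukocyte markers CD68 and CD14 had some or all arrays above it, and the melanocyte marker PMEL had 1. With DMSO, CD68 was lower in HSC-1 than in A431 by 2.72 on the log2 scale (means of 7.99 and 10.71), and LUM had means of 2.85 in HSC-1, below the array median, and 4.89 in A431. Of the 5 tested, CD68 changed with everolimus, by -0.20 ± 0.048 in A431 and -0.17 ± 0.048 in HSC-1, and the part of other cell types in the results was not tested.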

How the data were processed

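RNA was measured on 12 arrays, and per the labels' protocols total RNA was copied to biotin-labelled cDNA with whole-transcript kits. Per the submitters' processing notes, the authors used Affymetrix Expression Console and RMA, and what they deposited is a log2 level for each probe set. For software versions and the build, the sources used here give nothing. RMA brings the arrays to nearly the same distribution, so a change in the RNA content of cells may not show. The number of arrays limits the precision.

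Of 53617 probe sets, 16098 carried 1 gene symbol, updated by Entrez identifier to GRCh38.p14. A gene took its probe set with the highest mean. It was tested where at least 3 arrays lay above their own median (4.34 to 4.39), which kept 10613 genes. Group means were fitted with limma 3.58.1 in R 4.3.3 (lmFit, contrasts and eBayes, its prior variance following intensity, with 8 residual degrees of freedom), with Benjamini-Hochberg adjustment over all genes tested and a threshold of 0.05. There were 5 comparisons: everolimus in each line, the effect in HSC-1 minus that in A431, and the lines under each treatment. ± is SE for a difference and SD for a mean of 3 arrays, and "called" means past the threshold.

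The members and lists were chosen with earlier results of these data known. Named genes are all members, up to 3 called genes with the largest difference from each list and comparison (the smallest p where none passed) and the 3 nearest profiles of 4 members. Some further list genes are given with values that were seen first. The motifs were also chosen after the data were seen. The procedure was tested on simulated data. Alternatives were a replicate block, other filters, variance models, scalings and probe set rules, array weights, fits limited to a comparison's own arrays, a threshold of 0.01 and leaving out each array. Same-numbered arrays of a line correlated between -0.155 and 0.018 in their deviations from group means, so the numbers were not taken to pair the arrays.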

Additional observations from a re-analysis of the deposited data

Results flagged for a closer look

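A test of the difference itself found unlike effects of everolimus in the lines for the following genes, given on the log2 scale as the effect in HSC-1 minus that in A431 ± SE, each with a limma adjusted p under 0.05. Among the desmosome members these were DSG3 (0.57 ± 0.064), DSC3 (0.36 ± 0.083), DSP (0.31 ± 0.052), JUP (0.27 ± 0.044) and PKP1 (0.23 ± 0.063). In the plaque list PPL differed by 0.61 ± 0.070. The keratins KRT13 (1.03 ± 0.095), KRT4 (0.96 ± 0.069) and KRT15 (0.40 ± 0.064) did so too, as did the junction genes VCL (0.38 ± 0.055) and CLDN1 (0.42 ± 0.057) and the transcription factor GRHL2 (0.26 ± 0.063). Kallikreins went both ways, with KLK13 (1.12 ± 0.170) and KLK11 (0.41 ± 0.101) more positive in HSC-1 and KLK6 (-0.89 ± 0.080) and KLK10 (-0.36 ± 0.062) more negative. Over all tested genes 10.5% were called in this comparison. The lists gave 1 of 5 plaque genes, 3 of 12 keratins, 1 of 7 adherens junction genes and 1 of 11 tight junction genes. They also gave 1 of 10 transcription factors and 0 of 3 hemidesmosome genes. Of 10 genes in the kallikrein list 2 were called in each direction. KLK13 had means below the array median in HSC-1 (4.17 and 3.98), where background may limit how far a level can fall. Whether a fall like that in A431 (-1.31) could have shown there was not tested, so no conclusion about HSC-1 is drawn from the sign of its difference. No group exceeded 3 arrays, so single arrays were not examined as outliers.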

How the results depend on the processing

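Over 40 member results (8 members in 5 comparisons), 820 of 872 alternative values kept their direction and their side of the threshold, 38 lost a call, 2 gained one and 12 changed sign, none of the last from a called value. With no intensity trend the counts of called members were 2 (from 5) for everolimus in A431 and 0 (from 4) in HSC-1. For the difference between the effects the count was 3 (from 5). Over all 10613 tested genes the counts were then 438 (from 714), 1537 (from 1977) and 749 (from 1118). The log2 differences of the members were unchanged by this setting, while their SE in A431 was larger, as for DSP (0.052 against 0.037). Between the lines the member counts with no intensity trend were 5 (from 6) with DMSO and 7 (from 8) with everolimus. Those of all tested genes were 6276 (from 6303) and 6284 (from 6289). At an adjusted p under 0.01 the member count for everolimus in HSC-1 was 2, where 1115 of all tested genes passed (from 1977). Leaving out 1 array gave member counts of 3 to 5 in A431, 3 to 4 in HSC-1 and 4 to 6 for the difference between the effects. Between the lines it gave 5 to 6 with DMSO and 6 to 8 with everolimus. All tested genes then gave 456 to 836 calls in A431, 1405 to 2032 in HSC-1 and 879 to 1161 for the difference between the effects. The 3 member calls in A431 arose without A431 DMSO replicate 1 or 2, where 458 and 456 of all tested genes were called (from 714). With the replicate block the member counts were 5, 4, 5, 6 and 8, the same as without it, and the same members were called. The difference of DSC2 in HSC-1 was 0.025 with array weights and ranged from -0.062 to 0.053 with 1 array left out. That of JUP in HSC-1 was -0.033 with quantile normalization applied again, and that of DSC2 between the lines with DMSO was then 0.019, and -0.065 to 0.0029 with 1 array left out. With 1 array left out, PKP3 in A431 ranged from -0.081 to 0.018 and the DSG2 difference between the effects from -0.033 to 0.085. Fits limited to a comparison's own arrays were not run for the contrast of effects, which uses all 12. DSG1 and DSC1 lay below the array median, so their levels are limited by background.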

Other observations

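Kallikreins are secreted proteases that cut desmosomal proteins in the upper epidermis. They were listed with the proteases CTSV and ST14 and with the inhibitor SPINK5, which had no named probe set. Of 10 tested genes of 11 listed, 6 fell and 1 rose in A431 by limma, and 5 fell and 0 rose in HSC-1 (6 and 0 at an unadjusted p under 0.05), with medians of -0.26 and -0.24, where 4.33% and 11.3% of all tested genes fell. The kallikrein KLK13 fell by 1.31 ± 0.120 in A431 and had a difference of -0.19 ± 0.120 in HSC-1, where its means of 4.17 and 3.98 lay below the array median. KLK7, which degrades corneodesmosomes in the stratum corneum, fell in both lines (-0.48 ± 0.080 and -0.35 ± 0.080). KLK6 rose in A431 (0.20 ± 0.057) and fell in HSC-1 (-0.69 ± 0.057), and KLK10 fell in both (-0.31 ± 0.044 and -0.68 ± 0.044). Among the counted falls in both lines was also ST14, which is not a kallikrein (-0.26 ± 0.059 in A431 and -0.34 ± 0.059 in HSC-1). KLK5, an activator of other kallikreins, was 21.3-fold higher in HSC-1 than in A431 with DMSO (4.41 ± 0.138).

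Among 10 tested epidermal and epithelial-mesenchymal transcription factors of 17 listed, 2 fell and 0 rose in A431 by limma (4 and 0 at an unadjusted p under 0.05), and 1 fell and 1 rose in HSC-1, where 18.6% of all tested genes were called, against 6.73% in A431. GRHL1, a grainyhead-like factor known to act on the DSG1 promoter, fell in both lines (-0.48 ± 0.122, limma adjusted p = 0.0224, and -0.51 ± 0.122, limma adjusted p = 0.00639). GRHL2, a regulator of epithelial junction genes, rose in HSC-1 (0.29 ± 0.045) and had a difference of 0.033 ± 0.045 in A431. OVOL2 fell in A431 (-0.47 ± 0.104). The repressor SNAI2 was 1.76-fold higher in HSC-1 than in A431 with DMSO (0.82 ± 0.038), and ZEB1, ZEB2 and TWIST1 lay below the array median on all 12 arrays. Of 4 tested genes for desmosome assembly and cadherin shedding, 0 were called by limma with everolimus in either line. At an unadjusted p under 0.05 there was 1 in A431 and 0 in HSC-1, with ADAM10, a sheddase of cadherins, having the smallest p (-0.15 ± 0.050 in A431, limma adjusted p = 0.0804, unadjusted p = 0.00699).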
